A study of Mus musculus with 8 samples.

Results

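The prolactin receptor gene Prlr and 9 genes of milk secretion and the mammary secretory epithelium, namely Elf5, Ltf, Lcn2, Wap, Csn2, Csn3, Csn1s1, Lalba and Muc1, were followed in RNA sequencing of mouse mammary tumours with and without suppression of microRNA-21 (miR-21). These 10 genes, of 27179 in the table of counts, were taken by name. They were selected on measured values of this same comparison, namely levels and fold changes between the groups, so their differences between the groups are given below as a description and without p-values, and the count past a threshold is printed only beside that over all genes. Tumours had been grown orthotopically in BALB/c mice, from 100000 cells per mammary fat pad of 4T1.13, a metastatic mouse mammary carcinoma line. The labels give day 14 for their recovery, whereas the methods of the study state an earlier day. The 4 tumours of the control line, 4T1.13-VC, were compared with 4 of the knockdown line, 4T1.13-miR-21-KD. Both lines were pools of clones that carried the same miArrest lentiviral vector with mCherry and hygromycin resistance. In the miR-21-KD line the H1 promoter of the vector drove an RNA that binds and holds mature miR-21, and in the vector control (VC) line it drove a scrambled sequence. Mice of both groups had an intact immune system, and the miR-21-KD tumours had begun to regress at recovery.

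Prolactin acts on the alveolar cells of the mammary gland through PRLR, a cytokine receptor without kinase activity of its own. The receptor uses the kinase JAK2 to activate the transcription factors STAT5A and STAT5B, which bind the promoters of milk protein genes, while CISH and the SOCS proteins damp the signal. ELF5, an ETS-family factor, specifies alveolar cells and works with STAT5. The caseins and whey proteins are the classical products of these cells during pregnancy and lactation.

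All 8 tumours had similar depth, between 12134849 and 13592695 reads counted on genes. Levels are given as CPM, the reads of a gene relative to the size of its library, with sizes scaled by TMM to allow for the composition of the libraries, and in each group n = 4. A count of 0 allows up to between 0.221 and 0.245 CPM at these depths, for counting error only. As whole tumours were sequenced, fewer cells of a type and less RNA per cell cannot be told apart. The knockdown itself could not be read from these libraries, because the vector sequesters mature miR-21, which is not a row of the tested table. Vmp1, whose transcription unit overlaps that of miR-21, had means of 354 CPM in VC tumours, against 365 CPM in miR-21-KD tumours. The sequence of the mature miRNA that is sequestered, as held by RefSeq for GRCm38.p6 at chr11:86584120-86584141 on the minus strand, is shown with bases 2 to 8, the seed, in capitals because the seed was searched for in the genes below.
mmu-miR-21a-5p: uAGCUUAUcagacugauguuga
The 7-base match to this seed, ATAAGCT, was found in none of the 3′ untranslated regions of the 10 genes, of which the median length was 401 bases. It was found in 917 of 13130 tested genes with a 3′ untranslated region, or 6.98%, where the median length was 1000 bases. The search used 1 coding transcript per gene and says only that these letters are not in these windows.

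Of the 10 genes, 9 had enough reads to be tested and Wap did not. The group difference passed an adjusted p of 0.05 for 5 of the 9, which were Prlr, Elf5, Ltf and Csn3 with higher levels and Csn1s1 with lower levels in miR-21-KD tumours. Over all 14382 genes tested, 39.1% passed, 19.6% with a higher and 19.5% with a lower level, and the median log2 fold change was -0.01. Since this contrast chose the genes, nothing is read from their share. Over the alternative analyses the count ran from 1, without miR-21-KD tumour 4, to 7, with DESeq2. With the replicate number as a block, Csn1s1 no longer passed, whereas Lalba and Muc1 did. Together the 10 genes held between 0.0296% and 0.0877% of the reads of a tumour.

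**Figure D1:**
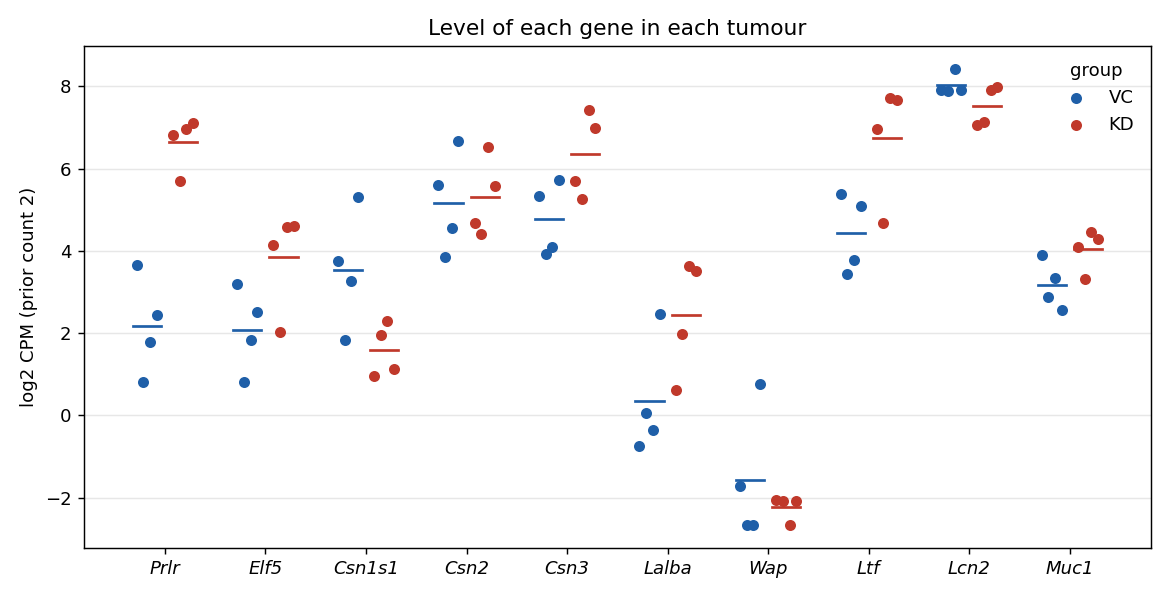
Level of each of the 10 genes in each tumour, as log2 CPM with a prior count of 2, for VC (blue) and miR-21-KD (red, KD) tumours. Points run from replicate 1 to 4 from left to right and the bars are group means. Prlr is the gene whose groups are separate, and within several genes replicate 2 of either group sits low.

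Prlr showed the largest difference of the 10. Its transcripts numbered 12.5, 1.6, 3.31 and 5.23 CPM in VC tumours 1 to 4 and 113, 51.6, 126 and 138 CPM in miR-21-KD tumours 1 to 4. Every miR-21-KD tumour lay above every VC tumour, and the lowest of them was still several fold above the highest VC tumour. The means were 5.65 ± 4.78 and 107 ± 38.2 CPM (SD, n = 4), and the log2 fold change was 4.23 ± 0.58 (SE), or 18.8-fold. It was the single gene of the 10 whose groups did not overlap, against 16.3% of all tested genes that lay wholly higher in miR-21-KD tumours. Leaving out any 1 tumour gave log2 fold changes between 3.92 and 4.99. The gene lies on chromosome 15 at chr15:10177238-10349190, plus strand.

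Prlr has 3 transcript starts with a promoter window in the RefSeq table, which holds 250 bases before to 50 after a start. The window of the second start held TTCNNNGAA, the palindromic core bound by STAT factors. The 80 bases from 140 to 61 before that start, at chr15:10223766-10223845 on the plus strand of GRCm38.p6, are printed with the match in capitals so that they can be set beside the casein promoters below.
Prlr second start: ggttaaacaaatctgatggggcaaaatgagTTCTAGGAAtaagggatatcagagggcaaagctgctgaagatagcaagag
The match lay between -110 and -102 of the start. The same letters were present in 2306 of 32851 windows, or 7.02%, and in 3 of the 12 windows found for 9 of the 10 genes. Csn3 had no window in the table. The ETS core CGGAAGT, searched on both strands, was in 4.92% of all windows and in 0 of these 12. Such a match describes the letters and is not evidence that a factor was bound.

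The genes that carry the prolactin signal were examined next, from lists drawn up by their roles, with earlier results of these data known. Transcripts of the hormone itself, Prl, were at 0 counts in all 8 tumours, and hormone arriving from outside a tumour was not measured. Of 17 tested signalling genes, 4 rose and 3 fell in miR-21-KD tumours by the quasi-likelihood test of edgeR with Benjamini-Hochberg adjustment, with a median log2 fold change of 0.23. Over all tested genes 19.6% rose and 19.5% fell. DESeq2 and upper-quartile scaling each called 7 of these signalling genes higher, limma-voom with quality weights called 8, and upper-quartile scaling called 2 lower. The receptor's kinase Jak2 had 478 ± 142 CPM in VC tumours, against 555 ± 120 CPM in miR-21-KD tumours (log2 fold change 0.21 ± 0.25, adjusted p = 0.511 by edgeR). Jak2 was thus abundant in both groups, and its groups overlapped.

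Of the STAT5 pair, Stat5b rose and Stat5a did not pass the test. Stat5b had 78.1, 78.1, 76.7 and 79.9 CPM in the VC tumours and 114, 93.4, 112 and 117 CPM in the miR-21-KD tumours, without overlap (log2 fold change 0.48 ± 0.09, adjusted p = 0.007 by edgeR). The VC tumours were almost equal for this gene. Stat5a went from 66.4 ± 6.83 to 82.7 ± 10.4 CPM (log2 fold change 0.32 ± 0.11, adjusted p = 0.0528 by edgeR). With the replicate number as a block its edgeR adjusted p was 0.0352, and it passed in 6 of 16 alternative analyses, this one included. Whether Stat5a and Stat5b changed by different amounts was not tested. Tec, a cytoplasmic tyrosine kinase, rose by 1.01 ± 0.15 on the log2 scale, with an edgeR adjusted p of 0.00571, and Fyn, a Src-family kinase that associates with the receptor, by 0.70 ± 0.13 with 0.00811. The adaptor Shc1 fell, with a log2 fold change of -0.66 ± 0.09 and an edgeR adjusted p of 0.00501, and so did Nek3, a kinase of the receptor complex (-0.69 ± 0.17, adjusted p = 0.0166). Ptpn11, the phosphatase SHP2, fell by a smaller amount (-0.26 ± 0.09, edgeR adjusted p = 0.0461), and the call was lost when any of VC tumours 1, 2 and 3 or miR-21-KD tumours 1, 3 and 4 was left out.

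Among 13 tested inhibitors of the signal, 5 rose and 1 fell, with a median log2 fold change of 0.25. The number higher was 3 without VC tumour 2 or miR-21-KD tumour 3, and the number lower was 0 with upper-quartile scaling and 0 to 2 with single tumours left out. Leukocytes express Stat5b, Fyn, Tec and the SOCS genes too, and markers of leukocytes moved with them. Of 8 tested T cell markers 4 rose, among them Cd4 (1.56 ± 0.35, edgeR adjusted p = 0.0128) and Cd3e (1.53 ± 0.38, 0.0166), with sums of 50.7 to 197 CPM in VC tumours and 165 to 369 CPM in the others, and all 8 macrophage markers rose. The part of these cells in the signalling and inhibitor genes was not tested. Socs2 moved the most of those named. It had 36.7, 16.2, 24 and 40.2 CPM in VC tumours, against 93.3, 78.8, 78.9 and 82.7 CPM in miR-21-KD tumours. The groups were separate and the miR-21-KD tumours close to each other (log2 fold change 1.51 ± 0.26, adjusted p = 0.00665 by edgeR). Socs1 rose by 0.66 ± 0.14 (edgeR adjusted p = 0.0105), and Ptpn1, a phosphatase of JAK2, by 0.47 ± 0.11 (edgeR adjusted p = 0.0148, and 0.0513 without VC tumour 3). Socs3 rose by 0.50 ± 0.15 on the log2 scale, with an edgeR adjusted p of 0.0304 that passed the threshold no longer without VC tumour 2 or 4 or miR-21-KD tumour 2 or 3. Socs7 fell by 0.25 ± 0.08 (edgeR adjusted p = 0.0339), a call that also depended on single tumours. Cish, the STAT5 target that gives direct feedback, had 129 ± 38.9 CPM in VC tumours, against 153 ± 24.9 CPM in miR-21-KD tumours, with a log2 fold change of 0.25 ± 0.23 and an edgeR adjusted p of 0.415. Its groups overlapped, with the lowest value, 72.7 CPM, in VC tumour 4.

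Elf5, at chr2:103412098-103450989 on the plus strand, had 9, 1.6, 3.39 and 5.56 CPM in the VC tumours and 17.6, 3.93, 23.6 and 24.3 CPM in the miR-21-KD tumours. All miR-21-KD tumours but tumour 2 exceeded the VC range. The means were 4.88 ± 3.18 and 17.4 ± 9.44 CPM, and the log2 fold change was 1.82 ± 0.63, or 3.54-fold. Without single tumours it ranged from 1.53 to 2.31.

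Other transcription factors of the mammary epithelium included several hormone receptors and their partners. Of 15 tested, 7 rose and 1 fell, with a median log2 fold change of 0.87. The progesterone receptor gene Pgr had 2.65, 0.399, 1.1 and 1.23 CPM in VC tumours, against 13.6, 7.47, 35.5 and 18.7 CPM in miR-21-KD tumours, so that the groups were separate (log2 fold change 3.79 ± 0.62, adjusted p = 0.00632 by edgeR). Foxa1, the pioneer factor of hormone-sensing luminal cells, had 6.19, 1.2, 2.76 and 1.88 CPM against 31.3, 8.72, 43.3 and 51.7 CPM (3.47 ± 0.64, edgeR adjusted p = 0.0076). In both genes miR-21-KD tumour 2 was the lowest of its group, as it was for Prlr and Elf5. Id2 rose by 1.02 ± 0.17 (edgeR adjusted p = 0.00656), and the oestrogen receptor gene Esr1 by 0.90 ± 0.20 (edgeR adjusted p = 0.0126). Nfib, a partner of STAT5 at milk protein genes, fell by 0.48 ± 0.12 (edgeR adjusted p = 0.0157). Gata3, which maintains luminal cells, had 217 ± 60.8 CPM in VC tumours, against 150 ± 73.4 CPM in miR-21-KD tumours (-0.53 ± 0.36, edgeR adjusted p = 0.26).

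Genes named as ligands or targets downstream of prolactin and progesterone were higher for 6 of 12 tested and lower for 1, with a median log2 fold change of 1.05. The number higher was 3 with no filter on low counts, and 3 when any of VC tumours 2, 3 and 4 or miR-21-KD tumours 1, 3 and 4 was left out. Cited1, a transcriptional coactivator, rose by 3.76 ± 0.67 on the log2 scale (edgeR adjusted p = 0.00711). It had 4.72, 0.878, 0.788 and 1.96 CPM in VC tumours, against 15.3, 14.9, 28.4 and 56.2 CPM in miR-21-KD tumours. Prom2, a pentaspan membrane protein, rose by 3.16 ± 0.57 (edgeR adjusted p = 0.00739), and Cldn3, a tight junction protein, by 2.31 ± 0.54 (edgeR adjusted p = 0.014). The gene that fell was Ccnd1, encoding cyclin D1, from 1580 ± 366 to 526 ± 389 CPM (-1.58 ± 0.48, edgeR adjusted p = 0.0309). Its call was lost without VC tumour 2 or 3 or miR-21-KD tumour 3 or 4, where the adjusted p lay between 0.0731 and 0.0836.

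**Figure D2:**
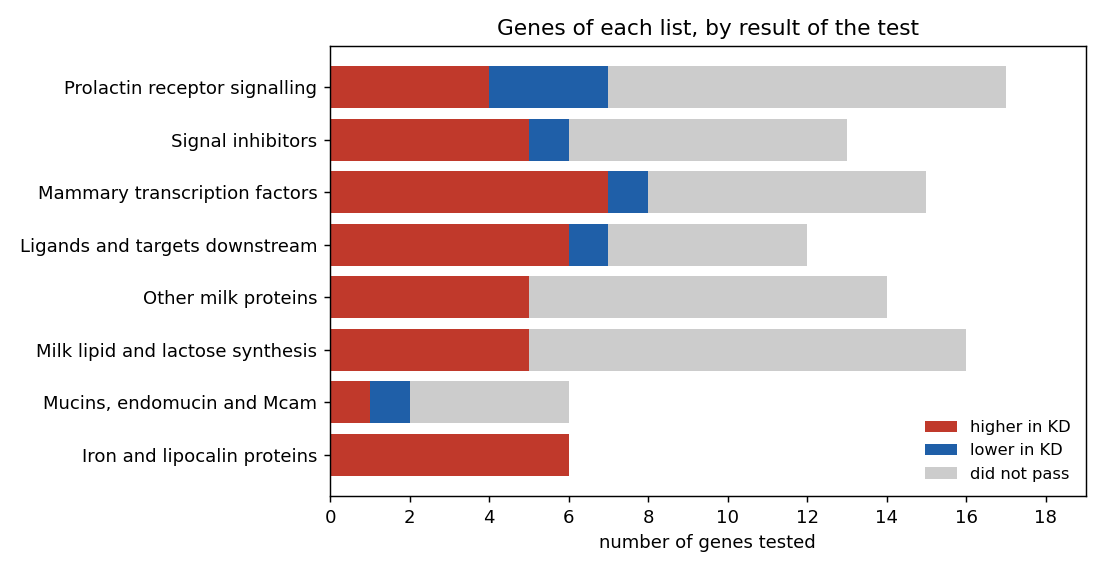
Number of tested genes in each of 8 pathway lists that were higher in miR-21-KD tumours (red), lower (blue) or did not pass an adjusted p of 0.05 (grey). The iron and lipocalin list has 6 genes higher of 6 tested, and the signalling list has 4 higher and 3 lower of 17.

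The 3 caseins among the 10 genes sit in the same gene cluster on chromosome 5, yet they did not move together. Csn1s1, encoding alpha-S1-casein, is at chr5:87666208-87682578 on the plus strand, Csn2, encoding beta-casein, at chr5:87692619-87699429 on the minus strand, and Csn3, encoding kappa-casein, at chr5:87925579-87932550 on the plus strand. Csn1s1 was lower, Csn2 about equal and Csn3 higher in miR-21-KD tumours.

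Csn1s1 had 13.3, 3.43, 9.54 and 39.9 CPM in the VC tumours and 1.78, 3.69, 4.79 and 2.04 CPM in the miR-21-KD tumours. The miR-21-KD tumours were uniformly low, and VC tumour 2 was as low as they were. Means were 16.5 ± 16.1 and 3.07 ± 1.42 CPM (log2 fold change -2.42 ± 0.70, a ratio of 0.186). Without VC tumour 4 the log2 fold change was -1.51, with the replicate block -2.00 and with limma-voom and quality weights -1.47.

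Csn2 had 48.7, 14.2, 23.2 and 102 CPM in VC tumours, against 25.6, 21.1, 92.8 and 47.6 CPM in miR-21-KD tumours. The ranges coincided almost completely, and the log2 fold change was -0.01 ± 0.65. Its sign depended on single tumours, from -0.58 without miR-21-KD tumour 3 to 0.70 without VC tumour 4.

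Csn3 had 40.3, 15.2, 17 and 52.9 CPM in VC tumours, against 52.1, 38, 173 and 128 CPM in miR-21-KD tumours. Tumours 3 and 4 of the latter lay far above the VC tumours, and tumours 1 and 2 within their range. Means were 31.3 ± 18.4 and 97.6 ± 63.6 CPM (log2 fold change 1.64 ± 0.57, or 3.11-fold), with 1.21 to 2.01 when single tumours were left out.

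Ratios of counts within a tumour remove differences in the number of secretory cells that affect both genes alike. These ratios were chosen after the values were seen. The ratio of Csn3 to Csn2 was 0.827, 1.07, 0.732 and 0.518 in VC tumours and 2.03, 1.81, 1.86 and 2.68 in miR-21-KD tumours, so that the groups were separate although either gene alone varied several fold within a group. The ratio of Csn2 to Csn1s1 was 2.44 to 4.14 in VC tumours, against 5.7 to 23.4 in miR-21-KD tumours. That of Csn3 to Csn1s1 was 1.33 to 4.42 and 10.3 to 62.7. In either group the ratio of Csn3 to Csn2 spanned a narrower range than the level of either gene.

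**Figure D3:**
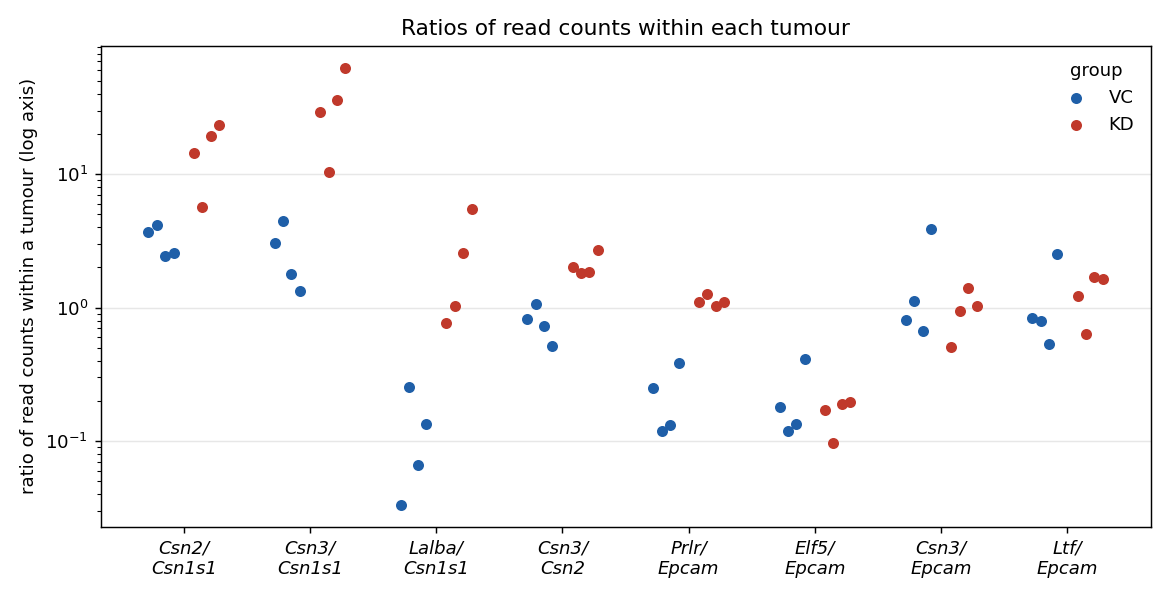
Ratio of the read counts of pairs of genes within each tumour, on a log axis, for VC (blue) and miR-21-KD (red, KD) tumours, with replicates 1 to 4 from left to right. The casein ratios and Prlr to Epcam do not overlap between groups, whereas Elf5 to Epcam (0.118 to 0.41 and 0.0967 to 0.196) and Csn3 to Epcam do.

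The promoters of Csn1s1 and Csn2 both held TTCNNNGAA, at -100 to -92 and at -93 to -85 from the start. The same stretch, from 140 to 61 bases before the start, is shown for both, with the match in capitals. Their positions in GRCm38.p6 are chr5:87666068-87666147 on the plus strand and chr5:87699486-87699565 on the minus strand.
Csn1s1: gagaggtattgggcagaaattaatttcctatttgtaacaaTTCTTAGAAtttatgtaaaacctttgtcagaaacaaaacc
Csn2: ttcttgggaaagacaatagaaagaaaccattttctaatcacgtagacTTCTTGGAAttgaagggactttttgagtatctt
Of both casein genes with the match, Csn1s1 was lower in miR-21-KD tumours and Csn2 was about equal between the groups. The window of Lalba in the table lies inside the gene as placed below, so the sequence before its outermost start was not searched.

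Lalba, encoding alpha-lactalbumin, the regulatory subunit of lactose synthase, is at chr15:98480400-98482934 on the minus strand. Its read counts were 6, 11, 8 and 66 in VC tumours, against 17, 48, 151 and 143 in miR-21-KD tumours. In CPM these were 0.442, 0.878, 0.63 and 5.39 against 1.37, 3.77, 12.3 and 11.2. VC tumour 4 stood apart from the other VC tumours and lay above miR-21-KD tumours 1 and 2. The log2 fold change was 1.97 ± 0.91, and 3.44 without VC tumour 4. With the replicate block it was 2.17.

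Wap, encoding whey acidic protein, at chr11:6635483-6638654 on the minus strand, was hardly detected. It had 2, 0, 0 and 19 counts in VC tumours, against 1, 1, 0 and 1 in miR-21-KD tumours. Of 21 VC counts, 19 came from VC tumour 4, and no difference was detectable at this depth in the others.

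The remaining milk proteins were few. Of 21 other genes for proteins of milk or of the secreting cell, 14 were tested, 5 rose and 0 fell by edgeR, with a median log2 fold change of 1.15, and 0 were lower at an unadjusted p under 0.05 or by DESeq2 or limma-voom. DESeq2 called 8 higher, and 9 were higher without miR-21-KD tumour 2. Csn1s2a, the neighbouring alpha-S2-casein gene, had 2.21, 2.31, 2.76 and 42.9 CPM in VC tumours, against 0.242, 4.64, 5.6 and 0.783 CPM in miR-21-KD tumours (log2 fold change -2.15 ± 1.22, adjusted p = 0.185 by edgeR). Without VC tumour 4 its log2 fold change was 0.21. Csn1s2b had 1 count in all 8 tumours together. Glycam1, a mucin-like protein of milk and of lymph node vessels, was high in tumour 4 of either group, with 9.73 CPM in VC tumours, against 23.8 CPM in miR-21-KD, and lay between 0.0798 and 0.893 CPM in the other 6. Its log2 fold change of 1.20 ± 1.49 (edgeR adjusted p = 0.543) turned to -2.00 without miR-21-KD tumour 4.

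Of the 5 that rose, those with the smallest adjusted p were Slc34a2, Aqp5 and Cd36. The phosphate transporter Slc34a2 had 0.442, 0.16, 0.315 and 0.49 CPM in VC tumours, against 16.9, 0.943, 17 and 8.22 CPM in miR-21-KD tumours, without overlap (log2 fold change 4.89 ± 0.87, edgeR adjusted p = 0.00708). The water channel Aqp5 had 2.94 ± 0.609 and 22.2 ± 10.4 CPM (2.92 ± 0.39, edgeR adjusted p = 0.0052). The fatty acid transporter Cd36 rose by 1.75 ± 0.39 (edgeR adjusted p = 0.0119). The others were the milk lipase gene Cel (2.61 ± 0.65, edgeR adjusted p = 0.0168, and 0.0522 without VC tumour 3) and Plin2, which coats lipid droplets (1.10 ± 0.26, 0.0138). Of 16 tested genes of milk lipid and lactose synthesis, 5 rose and 0 fell by edgeR, with a median log2 fold change of 0.26, and again 0 fell at an unadjusted p under 0.05, by DESeq2 or by limma-voom. Those with the smallest adjusted p act in triglyceride synthesis, namely Gpam (1.29 ± 0.16, edgeR adjusted p = 0.00501), Dgat1 (0.77 ± 0.13, 0.00629) and Dgat2 (2.51 ± 0.43, 0.0068). Adipocytes also express these 3 genes and Cd36, and all 8 tested adipocyte markers rose. Their sum was 96.9 to 361 CPM in VC tumours, against 507 to 1300 CPM in miR-21-KD tumours, and their part in these rises was not tested.

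Ltf, encoding the iron-binding milk and granule protein lactoferrin, is at chr9:111019292-111042766 on the plus strand. It had 41.8, 10.7, 13.6 and 34.1 CPM in VC tumours, against 125, 25.5, 210 and 202 CPM in miR-21-KD tumours. As for Elf5, only miR-21-KD tumour 2 lay within the range of the VC tumours. Means were 25 ± 15.3 and 141 ± 86 CPM (log2 fold change 2.49 ± 0.67, or 5.62-fold).

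Lcn2, encoding lipocalin 2, which binds bacterial siderophores, is at chr2:32384637-32387739 on the minus strand and was the most abundant of the 10 genes. It had 242, 236, 345 and 240 CPM in VC tumours, against 133, 140, 243 and 254 CPM in miR-21-KD tumours. VC tumour 3 was high and the other VC tumours were within a few CPM of each other, while the miR-21-KD tumours formed a low and a high pair. The log2 fold change was -0.47 ± 0.25, and it was negative in all 16 alternative analyses (-0.63 to -0.32). The ratio of Ltf to Lcn2 counts was 0.0393 to 0.173 in VC tumours, against 0.183 to 0.941 in miR-21-KD tumours, and both proteins are stored in neutrophil granules.

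Neutrophils make both proteins, so neutrophil granule genes are set beside them. Of 16 tested, 4 rose and 0 fell by edgeR (0 also unadjusted, by DESeq2 and by limma-voom), with a median log2 fold change of 0.86, and the summed level was 334 to 911 CPM in VC tumours, against 646 to 2030 CPM in miR-21-KD tumours. That sum leaned on Chil3, a chitinase-like protein that macrophages also express, which rose from 18.8 ± 12.7 to 750 ± 419 CPM (5.32 ± 0.73, edgeR adjusted p = 0.00523). Ngp, a granule protein stored with lactoferrin, had 36.9, 4.31, 5.28 and 44.1 CPM in VC tumours, against 14.9, 6.6, 16.6 and 51.8 CPM in miR-21-KD tumours (-0.01 ± 0.85, edgeR adjusted p = 0.993). S100a8 and S100a9 had log2 fold changes of -0.16 ± 0.40 and -0.04 ± 0.37 (edgeR adjusted p = 0.773 and 0.94). Genes of the list that rose beside Chil3 were Cebpe, a factor of granule formation (2.02 ± 0.55, edgeR adjusted p = 0.0221), Prtn3, a granule protease (1.66 ± 0.55, 0.0426), and the leukotriene receptor gene Ltb4r1 (1.02 ± 0.15, 0.00571). In all, 13 of the 16 had a log2 fold change above 0, and Ngp, S100a8 and S100a9 were named after their values were seen. The call of Cebpe was lost without VC tumour 3 or miR-21-KD tumour 3 or 4, and that of Prtn3 without VC tumour 1, 2 or 3 or miR-21-KD tumour 1, 3 or 4. The part of neutrophils in the level of Ltf was not tested. The ratio of Ltf counts to each of the 16 tested granule genes overlapped between the groups for 12, was higher in every miR-21-KD tumour for 3, which were Ngp, S100a8 and S100a9, and lower in every miR-21-KD tumour for Chil3.

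Other proteins that handle iron or belong to the lipocalin pathway were all higher among those tested, 6 of 6, with 5 more too low to test and a median log2 fold change of 1.89. Trf, encoding transferrin, rose from 435 ± 123 to 1340 ± 391 CPM (1.62 ± 0.28, edgeR adjusted p = 0.00693). Mmp9, the protease that forms a complex with lipocalin 2, rose by 1.76 ± 0.23 (edgeR adjusted p = 0.00501), and Slc22a17, a receptor for lipocalin 2, by 2.05 ± 0.40 (edgeR adjusted p = 0.00848). Macrophages also express Mmp9. All 8 macrophage markers rose, with sums of 2770 to 4160 CPM in VC tumours, against 5630 to 8830 CPM in miR-21-KD tumours, and their part was not tested.

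Muc1, encoding the apical mucin of secretory epithelia, at chr3:89229056-89233381 on the plus strand, had 14.8, 7.18, 10 and 5.8 CPM in VC tumours, against 17.1, 9.83, 21.9 and 19.3 CPM in miR-21-KD tumours. The groups overlapped, as VC tumours 1 and 3 lay above miR-21-KD tumour 2. Means were 9.45 ± 3.98 and 17 ± 5.2 CPM, and the log2 fold change was 0.85 ± 0.33. Without single tumours it was 0.67 to 1.15. Of 6 tested genes from a list of other transmembrane mucins, endomucin and Mcam, an adhesion molecule with a mucin alias, 1 rose and 1 fell, with a median log2 fold change of 0.80. Muc13 rose by 1.46 ± 0.50 (edgeR adjusted p = 0.0464, and 0.0578 with the replicate block), and Mcam, which is not itself a mucin, fell by 0.64 ± 0.18 (edgeR adjusted p = 0.0235, and 0.0613 and 0.0672 without miR-21-KD tumours 3 and 4). Leaving out any of VC tumours 2, 3 and 4 or miR-21-KD tumours 1, 3 and 4 ended the Muc13 call.

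Over the 9 pathway lists together, 39 of 99 tested genes rose with miR-21-KD and 7 fell, or 39.4% and 7.07%, with a median log2 fold change of 0.52. The corresponding shares of all tested genes were 19.6% and 19.5%, and as the lists were drawn up with earlier results known, nothing is read from the difference. The number lower was 11 with the replicate block, 3 without miR-21-KD tumour 3 or 4 and 4 without VC tumour 2.

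**Figure D4:**
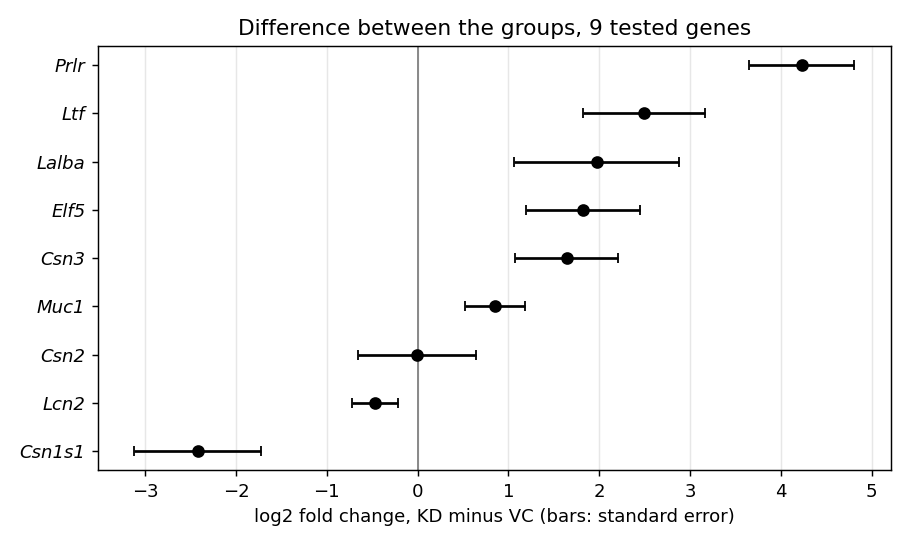
Log2 fold change, miR-21-KD minus VC, of the 9 tested genes with its standard error, ordered by size. Prlr is at 4.23 and Csn1s1 at -2.42, and the bar of Csn2 spans 0.

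Many markers of epithelial cell types were higher in miR-21-KD tumours, but the abundant luminal keratins Krt8 and Krt18 were not. Epcam, the epithelial adhesion molecule, had 49.9, 13.5, 25.3 and 13.6 CPM in VC tumours, against 102, 40.6, 124 and 124 CPM in miR-21-KD tumours (1.93 ± 0.50, edgeR adjusted p = 0.0182, and 0.0526 without VC tumour 3). Of 13 tested luminal markers 9 rose and 1 fell, with sums of 1560 to 2460 CPM in VC tumours, against 1450 to 2550 CPM in miR-21-KD tumours. These sums overlapped. The one that fell was Krt18, a luminal keratin abundant in all 8 tumours, from 1020 ± 243 to 460 ± 216 CPM (-1.15 ± 0.37, edgeR adjusted p = 0.0374, with the call lost without VC tumour 1, 2 or 3 or miR-21-KD tumour 3 or 4). Krt8 had 808 ± 173 CPM in VC tumours, against 439 ± 213 CPM in miR-21-KD tumours, and did not pass (-0.88 ± 0.37, edgeR adjusted p = 0.087). Of 8 hormone-sensing luminal markers 5 rose, with sums of 157 to 449 and 376 to 519 CPM, and of 8 myoepithelial markers 6 rose, with sums of 129 to 234 and 240 to 599 CPM. The myoepithelial sums were thus barely apart, and Acta2 alone gave 140 CPM in VC tumour 1 and 164 CPM in miR-21-KD tumour 2, the nearest pair. Wholly higher in miR-21-KD tumours were 4 of the 8 myoepithelial markers, against 16.3% of all tested genes. Normal mammary ducts hold luminal and myoepithelial cells side by side, and how much of each tumour sample was host gland was not tested.

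Set against Epcam within each tumour, a gene chosen after its values were seen, Prlr separated the groups and Elf5 did not. Over all 21 tested markers of the luminal and hormone-sensing lists, the ratio of Prlr counts to the marker was higher in every miR-21-KD tumour for 16 and overlapped for 5, which were Krt19, Cldn4, Pgr, Foxa1 and Cited1. Prlr to Krt19 was 0.161 to 0.496 in VC tumours, with 0.31 to 0.615 in the others, and Prlr to Foxa1 was 1.2 to 2.78, with 2.67 to 5.92. For Elf5 the ratio overlapped for 16 and was lower in every miR-21-KD tumour for 5. Values for Epcam follow. The ratio of Prlr to Epcam counts was 0.25, 0.118, 0.131 and 0.386 in VC tumours and 1.1, 1.27, 1.02 and 1.11 in miR-21-KD tumours, which were nearly equal to each other. The ratio of Elf5 to Epcam was 0.18, 0.118, 0.134 and 0.41 against 0.172, 0.0967, 0.191 and 0.196. Ltf to Epcam overlapped as well, with 0.536 to 2.51 and 0.629 to 1.7. Muc1 to Epcam was lower in miR-21-KD tumours, at 0.156 to 0.242 against 0.297 to 0.533, although Muc1 itself was higher in CPM. Set against the adipocyte hormone gene Adipoq, Prlr was 0.294 to 0.445 in VC tumours, against 0.976 to 1.92 in miR-21-KD tumours.

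**Figure D5:**
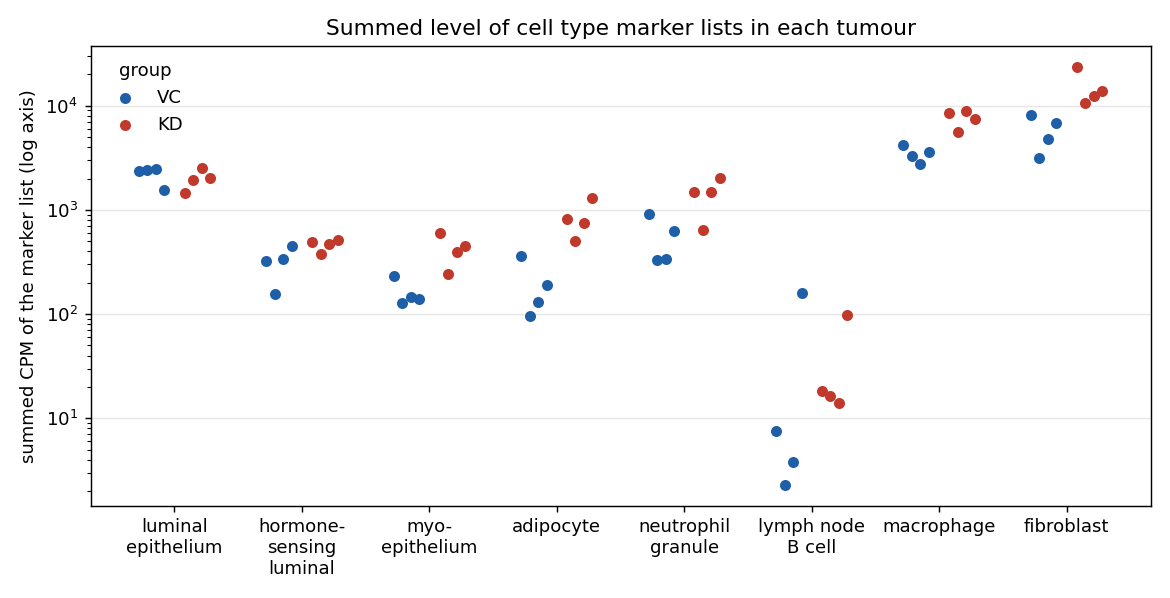
Summed CPM of 8 lists of cell type markers in each tumour, on a log axis, for VC (blue) and miR-21-KD (red, KD) tumours, with replicates 1 to 4 from left to right. The adipocyte, macrophage and fibroblast sums do not overlap between groups. The myoepithelial sums are barely apart, with 234 CPM in VC tumour 1 and 240 CPM in miR-21-KD tumour 2. The B cell sum is highest in tumour 4 of either group.

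Single tumours set much of the spread of the milk genes. VC tumour 2 had the lowest level of its group in 8 of the 10 genes, counting a tie at 0 for Wap, and miR-21-KD tumour 2 in 6. VC tumour 4 had the highest level of its group in 5, which were Wap and all 3 caseins and Lalba, and miR-21-KD tumour 3 in 6. VC tumour 4 also had the highest sum of the lymph node B cell markers, 159 CPM against 2.31 to 7.6 CPM in the other VC tumours, and miR-21-KD tumour 4 had 98 CPM against 13.9 to 18.3 CPM. Of 5 such markers tested 0 passed by edgeR, adjusted or not, 0 by DESeq2 and 1 by limma-voom, and Ccl19 was at 0 in all tumours. The part of host tissue around a lymph node in the casein levels of VC tumour 4 was not tested. Without that tumour the log2 fold change was 4.19 for Prlr, 1.88 for Elf5, 2.67 for Ltf, -0.52 for Lcn2, 2.01 for Csn3 and 0.67 for Muc1, and those of Csn1s1, Csn2 and Lalba are given above. Wap would then hold 2 counts in the VC group.

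Set per kilobase of a representative transcript, so that genes can be compared with each other, Lcn2 was the highest of the 10 in both groups, with 290 ± 57.9 CPM per kilobase in VC tumours, against 210 ± 71.1 in miR-21-KD tumours. In VC tumours Csn2 followed with 35.4 ± 29.7, then Csn3 with 19.6 ± 11.5, Csn1s1 with 11.7 ± 11.4 and Ltf with 9.13 ± 5.57, neighbours that did not differ beyond their spread. Muc1 with 4.22 ± 1.78, Lalba with 2.38 ± 3.09, Elf5 with 1.93 ± 1.26, Wap with 0.772 ± 1.37 and Prlr with 0.571 ± 0.483 were the lowest. In miR-21-KD tumours Csn3 with 61.2 ± 39.9, Ltf with 51.3 ± 31.3 and Csn2 with 35.2 ± 24.7 came next to Lcn2 and overlapped in spread. Prlr, with 10.8 ± 3.86, then stood above Lalba with 9.27 ± 6.99, Muc1 with 7.6 ± 2.32, Elf5 with 6.86 ± 3.73 and Csn1s1 with 2.18 ± 1.01, and Wap was at 0.108 ± 0.0719. The order of the neighbours from Prlr to Elf5 is within their spread.

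Among 13103 genes compared, those whose centred log2 CPM over the 8 tumours lay nearest to that of Prlr were Tspan1, Msx2, C130021I20Rik, Ptn and Sprr1a, with root mean square differences of 0.46 to 0.56. Tspan1 is a tetraspanin of epithelia, Msx2 a homeobox factor of mammary development, Ptn the growth factor pleiotrophin and Sprr1a a cornified envelope protein. Their log2 fold changes lay between 3.67 and 5.11. Nearest to Elf5 were Igfbp5, Kctd14, Ppp1r3c, Sox10 and Trim29, at 0.25 to 0.34, with log2 fold changes between 1.53 and 2.21. Igfbp5 is a binding protein for insulin-like growth factors, Sox10 a factor of mammary progenitor and myoepithelial cells, and Trim29 a basal epithelial protein. Sox10 had 8.48, 1.36, 4.26 and 3.27 CPM in VC tumours, against 22.5, 3.69, 19.7 and 27.9 CPM in miR-21-KD tumours, with replicate 2 the lowest of either group, as for Elf5.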

How the data were processed

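RNA sequencing of 8 whole tumours, 4 per group, was analysed from the raw counts of reads per gene that the authors deposited, by Entrez identifier and without normalization. The submitters' processing notes name Subread, featureCounts, limma and edgeR and the build mm10, without versions, and whether strand was used in counting is not given in the sources used here. Symbols matched 25275 of 27179 identifiers.

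Genes were kept by filterByExpr (minimum count 10, minimum total 15) and tested in R 4.3.3 with the robust quasi-likelihood test of edgeR 4.0.16 after TMM scaling, with Benjamini-Hochberg adjustment over all 14382 genes and a threshold of 0.05. The study describes the tumours as biological replicates. No 2 tumours of a group were alike within sampling noise (chi-square per degree of freedom 12.6 to 70.7).

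Tumours share numbers 1 to 4 across groups. After removal of group means, same-numbered tumours correlated at 0.272, 0.421, 0.175 and 0.376, with a mean of 0.311. The mean of -0.105 for other combinations follows from that removal, since deviations within a group cancel. It is therefore no separate evidence, and other matchings of the tumours were not compared. No stated design pairs the tumours, and these values do not settle whether the numbers do. A fit with the number as a block was one of the alternatives, beside DESeq2 1.42.0, limma-voom (limma 3.58.1) with and without quality weights, other scalings and filters, and each tumour left out.

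The members and lists were chosen with earlier results of these data known. Named genes were the members, 3 genes per pathway list and direction with the smallest adjusted p, 13 set genes of the pathway, marker genes of the highest level or at 0, and the 5 nearest profiles to Prlr and to Elf5. Other genes were named after their values were seen (Vmp1, Epcam, Krt8, Ngp, S100a8, S100a9, Adipoq, Cd4, Cd3e, Chil3, Cebpe, Prtn3, Ltb4r1, Cel, Plin2 and Sox10). Transcript lengths and 3′ regions came from 1 coding transcript per gene of GENCODE M21 (GRCm38), and promoters and miRNA from RefSeq tables. Levels for counts near 0 carry counting error only.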

Additional observations from a re-analysis of the deposited data

Results flagged for a closer look

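In 4 of the 20 groups of 4 tumours examined for the 10 genes, 1 tumour lay far from the others, with a Dixon ratio, the gap to the nearest tumour over the whole range, above the 95% critical value. That value flags about 1 in 20 groups when values are normally distributed. Levels in CPM need not be, and the groups share the same tumours, so the number flagged was not compared with chance. For Lcn2, VC tumour 3 had 345 CPM, with a ratio of 0.949, while the other 3 VC tumours lay between 236 and 242 CPM. For Lalba, VC tumour 4 had 5.39 CPM, with a ratio of 0.912, against 0.442 to 0.878 CPM. For Wap, VC tumour 4 had 1.55 CPM, with a ratio of 0.905, and the other VC tumours at most 0.147 CPM. Also for Wap, miR-21-KD tumour 3 was at 0 CPM, with a ratio of 0.968, where the other 3 had 1 count each, all under the level that a count of 0 allows.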

How the results depend on the processing

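Over the alternatives the log2 fold change was 3.92 to 5.06 for Prlr, 2.23 to 3.27 for Ltf, 1.53 to 2.51 for Elf5, 1.21 to 2.47 for Csn3, 0.67 to 1.15 for Muc1, 1.57 to 3.44 for Lalba, -0.63 to -0.32 for Lcn2, -2.77 to -1.47 for Csn1s1 and -0.58 to 1.07 for Csn2. As this contrast selected the genes, these are descriptions of the fits and support no difference. The number of the 10 genes past the threshold was 5. It was 3 with no filter on low counts, 2 with limma-voom, and between 1 (without miR-21-KD tumour 4) and 6 with single tumours left out. It was 2 without VC tumour 2 or 3 or miR-21-KD tumour 1 or 3. With the replicate block, which treats same-numbered tumours as pairs, it was 6, as Csn1s1 no longer passed and Lalba and Muc1 did. Csn1s1 also did not pass with limma-voom, with or without quality weights, or without miR-21-KD tumour 1 or 4. Among the pathway genes named in the text, including Cel, Plin2 and Sox10, the block changed the call of Stat5a and Muc13 and no other. Over all genes 5626 passed, 6485 with the block and between 2936 (without VC tumour 3) and 6840 with single tumours left out. It was 3290 without VC tumour 2, 3750 without miR-21-KD tumour 3 and 3366 without miR-21-KD tumour 4. With limma-voom and quality weights, 8202 genes passed. Of the pathway genes, 7 were lower, 11 with quality weights or the block and 3 to 9 with single tumours left out. Of these genes 39 were higher, and 29 to 47 with single tumours left out. Lalba moved from 1.97 to 3.44 without VC tumour 4, against 1.57 as the lowest value without a single tumour. Csn1s2a turned to 0.21 without VC tumour 4, the other end of its range being -2.72, and Glycam1 to -2.00 without miR-21-KD tumour 4, against 3.56 at the other end. Ngp, near 0, turned to 0.04 with upper-quartile scaling or at least 10 counts in every tumour, 0.29 with limma-voom, 1.34 with quality weights and 0.24 with the replicate block, and ranged from -0.84 to 0.53 without single tumours. S100a9 turned to 0.01, 0.01, 0.05, 0.43 and 0.05 in these fits and ranged from -0.23 to 0.37. S100a8 turned to 0.42 with quality weights and ranged from -0.40 to 0.27. The cause of these shifts was not tested, other than that fewer tumours enter such fits. Means in CPM under library size or upper-quartile scaling moved by less than 1 SD for all 10 genes. Counts under about 20 per tumour, as for Wap throughout and for Lalba in 4 tumours, limit what can be read from those genes.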
